A study of Drosophila melanogaster with 27 samples.

Results

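The chemoreceptor genes of the fly, which encode the receptors for smell and taste, were examined here in a chromatin study of larval neural stem cells. They were chosen by name: every gene of the BDGP6 annotation whose symbol is Or, Gr or Ir followed by a number and a lower-case letter. The rule found 185 genes, 59 of them Or, 60 Gr and 66 Ir genes, and 179 of the 185 were annotated as protein-coding, the other 6 being Ir pseudogenes. They were set against all other protein-coding genes, which numbered 13789. Each gene was taken as its gene body with 1000 bp on each side, called its window below. The choice used no measured value.

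The study profiled brains of 3rd-instar larvae by CUT&RUN, in which an antibody tethers a nuclease to its target on chromatin and the released DNA fragments are sequenced. The fruC-null brains carried fruC-DelC over fruAj96U3. The control brains carried fruC::myc, which adds a Myc tag to the FruC isoform of the transcription factor Fruitless. Both were also brat-null, with the allele brat11 over the deficiency Df(2L)Exel8040, which fills the brain with supernumerary type II neuroblasts, the stem cells under study, but neurons, glia and other neuroblasts remain in such brains and each sample pooled whole brains. Control brains were profiled with 2 replicates each for the Myc tag (FruC-Myc), for the part common to all Fruitless isoforms (FruCOM), for Trl, Su(H), Caf-1 and Su(z)12, and for H3K9me3. H3K27ac, H3K4me3 and H3K27me3 were profiled in fruC-null and control brains with 2 replicates of each. A single IgG sample of control brains was not analysed here, which leaves 26 of 27 samples behind the files used.

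Olfactory receptors (Or) and gustatory receptors (Gr) belong to related families of insect membrane channels that open on binding an odour or a taste compound, and ionotropic receptors (Ir) are relatives of the glutamate receptors of synapses. An olfactory neuron typically expresses 1 or a few of them beside a co-receptor, and most of these neurons have their cell bodies in sensory organs outside the brain. Among the antibody targets, Su(H) is the DNA-binding partner of the Notch pathway, Trl (GAGA factor) binds GA repeats at promoters, and Su(z)12 and Caf-1 are subunits of PRC2, the complex that writes H3K27me3. H3K27ac and H3K4me3 mark active enhancers and promoters, H3K27me3 marks Polycomb-repressed chromatin and H3K9me3 marks heterochromatin. No RNA was measured in these samples, so whether the chemoreceptor genes were silent could not be checked from transcripts. The text describes only peaks and regions that the authors listed on their chromatin.

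FruC-Myc peaks at receptor genes were few, and DNA is shown for the 3 with a summit at the gene's own start (Or67a, Or63a and Gr32a), for the strong Or88a site and for the PRC2 site of Ir8a. Each sequence below is read 5′ to 3′ on the strand of the receptor gene from the RefSeq genome of the same assembly, with capitals marking GAGAG (the Trl core word), GTGGGAA or GTGAGAA (words bound by Su(H)) or GGTCACAC (the core word of the promoter factor M1BP), on either strand. The Or67a sequence is the stretch of 250 bases upstream of that gene's start site on chromosome 3L (9528817 to 9529066, + strand), which holds a FruC-Myc summit. The others are 101 bases centred on a summit: FruC-Myc at Or63a (3L, 2961345 to 2961445, + strand), Gr32a (2L, 11113490 to 11113590, + strand) and Or88a (3R, 14108534 to 14108634, + strand), and Su(z)12 in an intron of Ir8a (X, 9235290 to 9235390, - strand).
Or67a: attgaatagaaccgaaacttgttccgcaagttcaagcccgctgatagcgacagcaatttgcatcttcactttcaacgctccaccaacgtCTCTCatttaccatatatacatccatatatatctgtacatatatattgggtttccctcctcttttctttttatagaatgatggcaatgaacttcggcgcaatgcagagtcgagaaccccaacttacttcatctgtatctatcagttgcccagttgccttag
Or63a: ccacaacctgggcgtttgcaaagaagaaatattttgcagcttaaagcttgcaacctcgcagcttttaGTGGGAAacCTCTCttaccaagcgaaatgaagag
Gr32a: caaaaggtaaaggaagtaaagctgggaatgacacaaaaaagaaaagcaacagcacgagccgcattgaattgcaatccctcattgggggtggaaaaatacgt
Or88a: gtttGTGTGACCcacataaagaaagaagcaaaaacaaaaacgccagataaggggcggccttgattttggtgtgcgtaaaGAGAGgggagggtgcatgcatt
Ir8a: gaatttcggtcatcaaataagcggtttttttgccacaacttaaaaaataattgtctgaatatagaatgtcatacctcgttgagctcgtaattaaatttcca
The Or88a site held a GAGAG and a GGTCACAC word, the Or63a site a GAGAG and a GTGGGAA word, the Or67a stretch a GAGAG word, and the Gr32a and Ir8a sites none of the 4 words. In 101 bases around all FruC-Myc summits of replicate 1, GAGAG stood in 30%, GTGGGAA in 1.58% and GGTCACAC in 3.36%. Of the 37 such summits in receptor windows, 10 had GAGAG (27%), 1 had GTGGGAA and 2 had GGTCACAC.

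The same words were counted in the promoters of all receptor genes, taken as 300 bases from 250 before to 50 after the annotated 5′ end of the gene. GAGAG stood in 37 of 185 receptor promoters (20%) and in 29.8% of the 13781 promoters of other genes with complete sequence. GGTCACAC stood in 0 of 185 receptor promoters and in 7.79% of the others. GTGGGAA was found in 12 receptor promoters (6.49%), against 3.56% of the others, and GTGAGAA in 4 (2.16%), against 2.96%. By family, GAGAG stood in 15 of 59 Or, 13 of 60 Gr and 9 of 66 Ir promoters. Median GC content was 39.3% in receptor promoters and 38% in the others. A word in a promoter is a description of its letters and not a binding site.

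FruC-Myc, the tagged neuroblast isoform, had a peak in the windows of 31 of the 185 receptor genes (16.8%), whereas 58.6% of other protein-coding genes had one. The authors called peaks on each replicate on its own with MACS2, and their lists held 15548 FruC-Myc peaks in replicate 1 and 5159 in replicate 2 on the chromosome arms. In replicate 1 alone the count was again 31 of 185 (16.8%), against 58.6% of other genes. In replicate 2 it was 8 of 185 (4.32%), against 23.6% of other genes, and all 8 were among the 31 of replicate 1. The share of receptor genes was thus below that of other genes in either replicate, and both shares were lower in replicate 2, whose list was the shorter. In a pooled brain, sites bound in few cells and sites bound weakly in many cannot be told apart.

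The other factor antibodies also had a peak at a smaller share of receptor genes than of other genes. FruCOM had a peak at 5 receptor genes (2.7%), against 18.4% of other genes, with 5 in replicate 1 (other genes 17.2%) and 3 in replicate 2 (12.1%). Trl had a peak at 2 (1.08%), against 10.2%, and both were found in each replicate, where other genes had 6.43% and 8.24%. Su(z)12 had a peak at 7 (3.78%), against 20%, with 5 in replicate 1 (other genes 17.7%), 6 in replicate 2 (12.6%) and 4 in both. Caf-1 had a peak at 7 (3.78%), against 16.4%, with 7 in replicate 1 (other genes 14.6%) and 4 in replicate 2 (8.99%). Su(H) had a peak at 0 of 185, against 2.12% of other genes, and its lists were the shortest, with 599 and 500 peaks. No receptor gene had a peak of another factor without one of FruC-Myc, so 154 of 185 (83.2%) had no factor peak at all. Of other genes, 58.6% had a FruC-Myc peak and 40.8% had no factor peak, so another factor without FruC-Myc was rare there too.

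**Figure D1:**
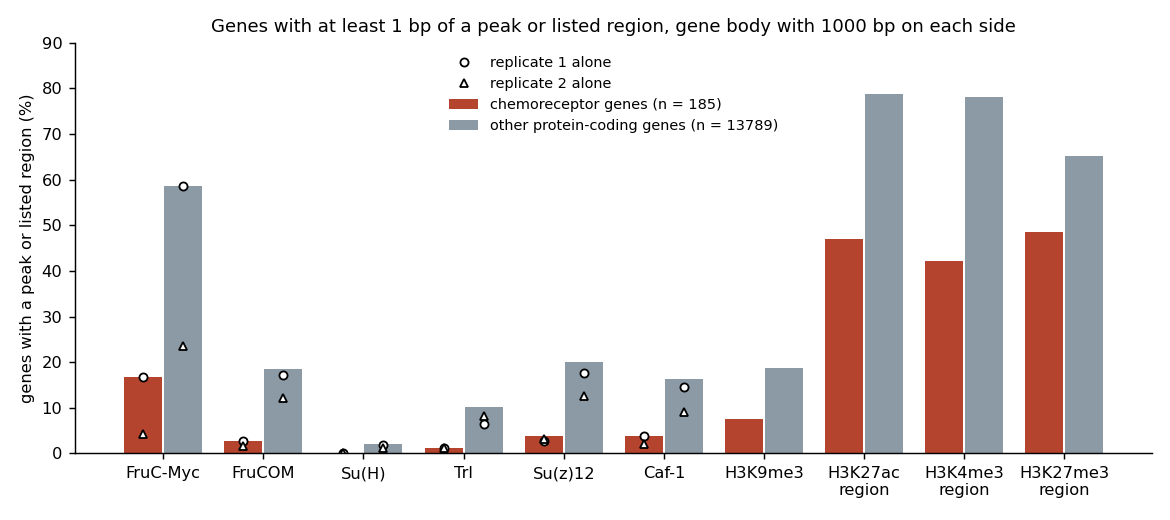
Percent of the 185 chemoreceptor genes and of the 13789 other protein-coding genes whose window holds a peak of each antibody or a listed region of each mark (bars), with replicate 1 and replicate 2 alone for the 6 factor antibodies (circles and triangles). The chemoreceptor bar is lower in each of the 10 pairs, from 0% against 2.12% for Su(H) to 48.6% against 65.2% for H3K27me3.

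The windows differed from those of other genes in size and surroundings, so both were examined. The median gene body was 1680 bp in receptor genes and 2182 bp in other genes. Among gene bodies of 1000 to 3000 bp, a limit chosen after seeing the data, FruC-Myc had a peak at 27 of 161 receptor genes (16.8%) and at 53.4% of other genes. At this limit the shares of other genes were also lower for the other antibodies. FruCOM had a peak at 3.11% of receptor genes, against 10.1%, and Su(H) at 0%, against 0.621%. Trl had one at 1.24%, against 4.47%, and Su(z)12 at 3.11%, against 12.5%. Caf-1 had one at 3.73%, against 10.3%, and H3K9me3 at 5.59%, against 15.6%. The windows of 87 receptor genes (47%) held an annotated start site of some other gene, against 68.9% of other genes. With such a start site in the window, FruC-Myc had a peak at 22 of 87 receptor genes (25.3%), against 68.6% of other genes. Without one, it had a peak at 9 of 98 (9.18%), against 36.7% of other genes. On each chromosome arm with members, the share of receptor genes lay between 12.9% on 2L and 20% on X, against 57.5% to 62.1% of other genes. Arm by arm, the share of receptor genes was below that of other genes for each of the 10 antibodies with 1 exception, H3K27me3 regions on 3L, which touched 24 of 35 receptor genes (68.6%), against 63.6% of other genes. For H3K9me3 on 3R the shares were close, at 6 of 42 receptor genes (14.3%), against 14.6% of other genes.

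Most FruC-Myc peaks in receptor windows lay at a neighbouring gene. Replicate 1 had 37 distinct peaks in these windows, of which 24 had a non-receptor gene's start site nearest to the summit and 21 had one within 500 bp. For 3 of the 37, the nearest start site was that of a receptor gene and lay within 500 bp. Where a protein-coding non-receptor start site lay in the window, 19 of 39 receptor genes had a FruC-Myc peak (48.7%), and where none did, 12 of 146 had one (8.22%). These splits by the neighbour's start were not made for other genes, so they are not shown to be particular to receptor genes. With any other gene's start site counted, other genes also differed, with 68.6% where one lay in the window and 36.7% where none did. Counting distances outward from the start sites in place of windows, the median distance to the nearest FruC-Myc summit of replicate 1 was 7158 bp for receptor genes and 880 bp for other genes. In replicate 2 these medians were 23830 bp and 9765 bp. A replicate 1 summit lay within 500 bp of the start of 5 of 185 receptor genes, against 46.7% of other genes, and a replicate 2 summit within 500 bp of 1 receptor gene, against 15.3% of other genes.

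Among the 31 receptor genes with a FruC-Myc peak, fold enrichment at the summit of the strongest replicate 1 peak ran from 2.34 at Or67c to 22.4 at Or9a, with a median of 5.64. The median of all replicate 1 peaks was 5.26, and 14 of the 31 were below it. The nearest start site belonged to another gene for 19 of the 31, with a median enrichment of 5.42 and a highest value of 22.4, and to a receptor gene for 12, with a median of 6.20 and a highest value of 10.4. The 8 genes with a replicate 2 peak had enrichments between 5.18 and 17.7 there, and they were the 8 highest of the 31 in replicate 1.

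**Figure D2:**
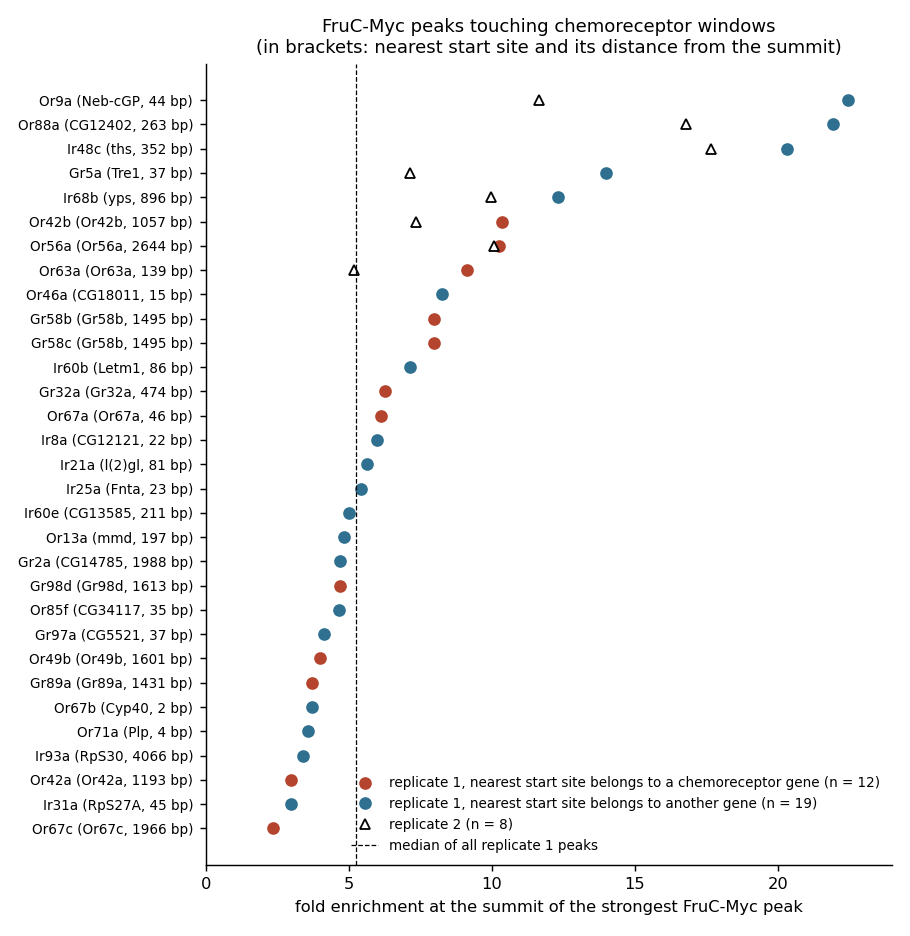
Fold enrichment of the strongest FruC-Myc peak touching the window of each of the 31 chemoreceptor genes that have one, in replicate 1 (filled, coloured by whether the nearest start site is that of a chemoreceptor gene) and replicate 2 (triangles, 8 genes). The dashed line is the median of all replicate 1 peaks (5.26), and the 3 highest genes, Or9a, Or88a and Ir48c, have another gene's start site within 352 bp of the summit.

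Near their own start sites, 3 receptor genes had a FruC-Myc peak whose summit was within 500 bp of it and nearer to it than to any other gene. Or67a, an olfactory receptor gene with no other start site in its window, had its summit 46 bp upstream, with a fold enrichment of 6.13 and a −log10 Q-value of 19.7 in replicate 1 and no peak in replicate 2. Or63a had a summit 139 bp upstream with an enrichment of 9.12 in replicate 1, and 136 bp upstream with 5.18 in replicate 2. Gr32a, a receptor for bitter compounds and for male pheromone, had a summit 474 bp upstream with an enrichment of 6.27 in replicate 1 and none in replicate 2. None of the 3 had a peak of another factor antibody, and only the Or63a peak was found in both FruC-Myc replicates.

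The strongest sites stood beside other genes. Or88a, the receptor for a fly-produced odour on chromosome 3R, had FruC-Myc enrichments of 21.9 and 16.8 in replicates 1 and 2 at a summit 861 bp upstream of its start, which lies 263 bp from the start of CG12402. FruCOM had 12.0 and 8.88 there, Trl 8.49 and 8.61, Su(z)12 7.05 and 7.04, and Caf-1 6.19 in replicate 1 only. Ir48c (2R) lies inside ths, which encodes an FGF ligand, and had peaks of the same 5 antibodies in both replicates about 350 bp from a ths start. Enrichments at Ir48c were 20.3 and 17.7 for FruC-Myc, 25.1 and 23.3 for FruCOM, 24.6 and 24.6 for Su(z)12, 8.89 and 7.59 for Caf-1, and 5.12 and 6.5 for Trl. Thus Or88a and Ir48c were the 2 receptor genes with peaks of 5 antibodies in their own promoter, taken as 1000 bp before a start site and 100 bp after it, and they were also the 2 with a Trl peak.

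At Or9a (X), FruC-Myc had enrichments of 22.4 and 11.7, Su(z)12 of 11.4 and 6.64 and Caf-1 of 8.25 and 5.69, with the FruC-Myc summit 44 bp from the start of Neb-cGP and 1016 bp from that of Or9a. At Gr5a (X), which encodes the trehalose receptor, FruC-Myc had 14.0 and 7.13 and Caf-1 7.22 in replicate 1 only, with the FruC-Myc summit 37 bp from the start of Tre1, a receptor gene of another family that guides germ cells. At Or46a (2R), FruC-Myc had 8.27 in replicate 1 only and Caf-1 had 5.84 and 7.59, at the start of CG18011. At all 3 genes the FruC-Myc summit of replicate 1 was within 50 bp of a neighbour's start.

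At 2 other receptor genes the peaks had no nearer start site. Or42b (2R), a receptor for fruit esters, had FruC-Myc enrichments of 10.4 and 7.33 about 1057 bp upstream of its start, with FruCOM at 7.24 and 7.21, and Su(z)12 at 5.10 and Caf-1 at 5.80 in replicate 1 only. Or56a (2R), the receptor for geosmin, had FruC-Myc enrichments of 10.3 and 10.1 downstream of the gene, 2644 bp from its start, with FruCOM at 6.77 in replicate 1 only. FruC-Myc, Su(z)12 and Caf-1 all had a peak at 5 receptor genes (2.7%), against 12% of other genes.

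Ir8a (X) had PRC2 peaks in an intron and a weaker FruC-Myc peak at the same place. This co-receptor of acid-sensing Ir neurons had Su(z)12 enrichments of 13.3 and 9.05 and Caf-1 enrichments of 11.0 and 6.45, with summits 1231 to 1254 bp downstream of its start. FruC-Myc had an enrichment of 4.85 at the same place in replicate 1 and no peak there in replicate 2. The Su(z)12 peak in replicate 1 ranked at the 95.9th percentile of fold enrichment in its list, and the FruC-Myc peak at the 44.0th in its own. A stronger FruC-Myc peak of the Ir8a window, with an enrichment of 5.99 in replicate 1 only, lay elsewhere, 22 bp from the start of CG12121.

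By role, the counts were small, and they stand against 16.8% of all receptor genes and 58.6% of other genes with a FruC-Myc peak. Of the 9 sugar receptors (Gr5a, Gr43a, Gr61a and Gr64a to Gr64f), only Gr5a had a FruC-Myc peak, at the Tre1 start described above. Of the carbon dioxide receptors Gr21a and Gr63a, 0 of 2 had one. Of the 5 receptors that bitter-sensing neurons share (Gr32a, Gr33a, Gr39a, Gr66a and Gr89a), Gr32a and Gr89a had one, with Gr89a at an enrichment of 3.71 in replicate 1 only. Of the 5 receptors for temperature and humidity (Gr28b, Ir21a, Ir40a, Ir68a and Ir93a), Ir21a and Ir93a had one. Of the 3 Ir co-receptors, Ir8a and Ir25a had one and Ir76b none, and the Ir25a peak, with an enrichment of 5.42 in replicate 1 only, was 23 bp from the start of Fnta. Or47b, Or67d and Ir84a, the receptors of sensory neurons that express fruitless in the adult and serve courtship, had 0 peaks of any factor antibody and 0 of H3K9me3. Most receptor genes also had no such peak (78.9%, against 36.3% of other genes).

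Chemosensory genes outside the receptor families were set beside them as a list. Their counts stand against 58.6% of other protein-coding genes with a FruC-Myc peak. Of 49 Obp genes, which encode odorant-binding proteins, 5 had a FruC-Myc peak, and of 29 ppk genes, which encode sodium channels of sensory neurons, 10 had one. Of Orco (the general Or co-receptor), Snmp1 and Snmp2, 0 of 3 had one. All 8 neuroblast genes used as markers (dpn, N, klu, wor, mira, insc, tll and E(spl)mgamma-HLH), all 6 markers of intermediate progenitors and all 4 neuronal markers (elav, nSyb, brp and Syt1) had a FruC-Myc peak, as did the glial gene repo. Peaks thus lay at marker loci of several cell types of the brain.

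The histone tables list regions that the authors' sliding-window comparison of fruC-null with control brains put out for each mark. The paper counts the regions of this comparison as those with significant changes between fruC-null and control brains. A mark at a similar level in both could thus have no listed region. Being listed is not a level of the mark in either genotype, and the direction and size of the authors' comparison were not used here. A listed H3K27ac region touched the windows of 87 receptor genes (47%), against 78.8% of other genes. An H3K4me3 region touched 78 (42.2%), against 78.2%, and an H3K27me3 region touched 90 (48.6%), against 65.2%. By family the shares ran from 43.3% (Gr) to 52.5% (Or) for H3K27ac, from 35.6% (Or) to 46.7% (Gr) for H3K4me3 and from 44.1% (Or) to 54.5% (Ir) for H3K27me3. These regions covered 14.9% of the bases of the receptor windows for H3K27ac, 20.3% for H3K4me3 and 13.9% for H3K27me3, against 23.7%, 27.1% and 16.6% of the bases of other windows. By share of genes, the gap between receptor and other genes was the smallest of the 3 marks for H3K27me3.

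On the start sites themselves the listed active marks were fewer. An H3K27ac region lay on a start site of 34 receptor genes (18.4%), against 47.9% of other genes, an H3K4me3 region on 33 (17.8%), against 60.7%, and an H3K27me3 region on 29 (15.7%), against 33.2%. In windows with no other gene's start site, the counts were 16 of 98 (16.3%) for H3K27ac, against 33.2%, 13 of 98 (13.3%) for H3K4me3, against 40.7%, and 17 of 98 (17.3%) for H3K27me3, against 27.2%. H3K27ac and H3K4me3 regions both lay on a start of 14 receptor genes (7.57%), against 42.6% of other genes. These 14 were Gr32a, Or43a, Ir60b, Ir60c, Ir60e, Gr61a, Gr63a, Ir68b, Ir76a, Or88a, Gr89a, Gr93a, Gr93c and Ir100a. Of the 14, 6 had a FruC-Myc peak in the window, as had 16.8% of all receptor genes. A protein-coding non-receptor start site lay in the window of 7 of them, and of 21.1% of all receptor genes. Other genes with both marks on a start were not counted in this way.

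**Figure D3:**
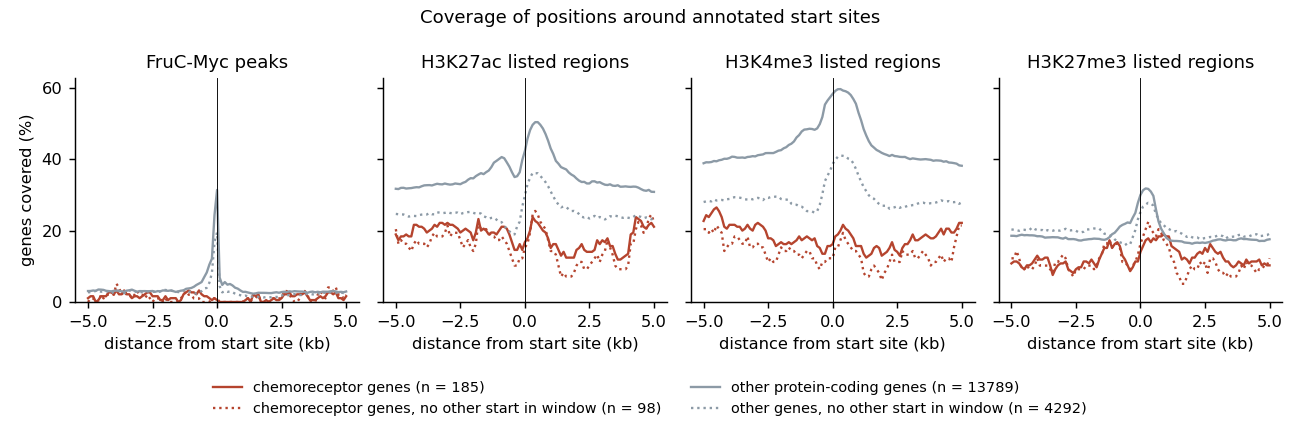
Percent of genes whose position at a given distance from the start site (kb, negative upstream) lies in a FruC-Myc peak or in a listed H3K27ac, H3K4me3 or H3K27me3 region, for chemoreceptor genes and other protein-coding genes (solid), and for those with no other start site in the window (dotted). FruC-Myc covered 0.541% of chemoreceptor starts and 31.4% of other starts, and H3K4me3 regions covered 21.6% of chemoreceptor genes and 59.2% of other genes at 400 bp downstream.

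The same comparison was made by position along the start-site profile. At 300 bp downstream, H3K27ac regions covered 23.8% of receptor genes, against 49.6% of other genes, and H3K27me3 regions covered 17.8%, against 31.7%. At 3000 bp upstream the values were 22.2%, against 33.0%, for H3K27ac and 10.8%, against 17.8%, for H3K27me3. For H3K4me3, 21.6% of receptor genes were covered both at 3000 bp upstream and at 400 bp downstream, against 40.8% and 59.2% of other genes. At these 2 positions H3K4me3 was thus listed at an equal share of receptor genes, but at unequal shares of other genes.

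The combination of listed marks also differed. No listed region of any of the 3 marks touched 56 receptor windows (30.3%), against 9.01% of other genes, and all 3 touched 44 (23.8%), against 50.9%. A listed H3K27me3 region without a listed H3K27ac or H3K4me3 region was found at 27 receptor genes (14.6%), against 6.71% of other genes. Among them were 6 Or, 8 Gr and 13 Ir genes. Listed H3K27ac and H3K4me3 regions without a listed H3K27me3 region were found at 19 (10.3%), against 21.8% of other genes. In none of the peak lists and tables at all were 52 receptor genes (28.1%), against 8.03% of other genes, with 16 Or, 17 Gr and 19 Ir genes, Ir84a among them.

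**Figure D4:**
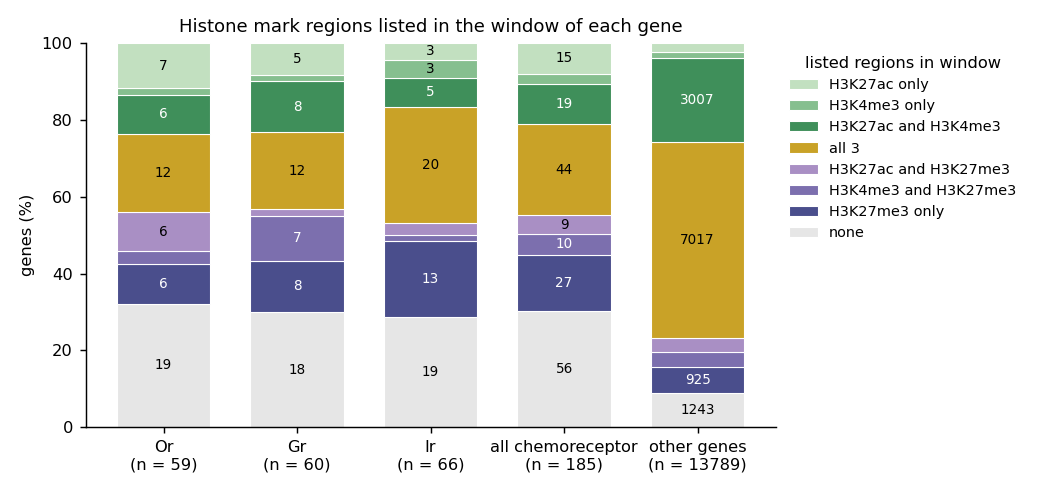
Share of Or, Gr and Ir genes, of all 185 chemoreceptor genes and of the 13789 other protein-coding genes by which of the 3 histone marks has a listed region in the window, with counts inside the bars where a part is above 4%. The grey part with no listed region is 56 of 185 chemoreceptor genes and 1243 of 13789 other genes, and the gold part with all 3 marks is 44 and 7017.

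Several receptor genes had long stretches under listed regions. Or56a had its whole window of 3773 bp under 1 H3K27ac region of 7300 bp, and Ir7a its whole window of 3845 bp under 1 H3K27me3 region of 7100 bp. Ir76a, which needs the co-receptor Ir76b in amine-sensing neurons, had 4500 bp under H3K27ac regions, which was 73.2% of its window. Ir31a had 4583 bp (98.9%) under H3K4me3 regions, of which the longest was 8150 bp and reached beyond the window. Ir21a, a receptor for cooling, had 4583 bp (85.9%) under H3K27me3 regions beside the 3 FruC-Myc peaks near the l(2)gl start. Ir93a, its partner in temperature and humidity sensing, had 3692 bp under H3K27ac, 5592 bp under H3K4me3 and 2692 bp under H3K27me3 regions. Ir41a, the longest receptor gene, had the most bases under H3K4me3 regions (38350 bp, or 36.0% of its window, in 22 regions) and under H3K27me3 regions (9200 bp) of any member. At least 50% of the window was under listed regions at 22 receptor genes for H3K27ac (11.9%, against 34.9% of other genes), at 27 for H3K4me3 (14.6%, against 47.3%) and at 15 for H3K27me3 (8.11%, against 11.7%).

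The role lists are small, and their counts stand against 48.6% of all receptor genes and 65.2% of other genes for H3K27me3, 47% and 78.8% for H3K27ac, and 42.2% and 78.2% for H3K4me3. H3K27me3 regions touched 6 of 9 sugar receptors and both carbon dioxide receptors. Among the 6, the overlapping windows of Gr64b, Gr64c, Gr64d and Gr64e shared 1 region of 900 bp, so these are not separate cases. H3K27ac regions touched 1 of 9 sugar receptors (Gr61a) and 1 of 2 carbon dioxide receptors (Gr63a). H3K4me3 regions touched 5 of 9 sugar receptors (Gr5a, Gr61a, Gr64d, Gr64e and Gr64f), of which Gr64d and Gr64e have overlapping windows. They also touched 1 of 2 carbon dioxide receptors (Gr63a). Of the 5 shared bitter receptors, H3K27ac regions touched 4, H3K4me3 regions 3 and H3K27me3 regions 1, Gr66a. Of the 5 temperature and humidity receptors, each of the 3 marks touched 4. All 3 Ir co-receptors had H3K27ac and H3K4me3 regions, and only Ir25a had a listed H3K4me3 region on a start site. Among the courtship receptors, Or67d, the receptor for the male pheromone cVA, had 88.4% of its window under H3K27ac regions and 4.30% under H3K27me3 regions. Or67d also had a listed H3K4me3 region. Or47b had a listed H3K27me3 region over 11.4% of its window and no listed region of either active mark. Ir84a had no listed region of any of the 3 marks. Of the 49 Obp genes, 33 had an H3K27ac, 21 an H3K4me3 and 28 an H3K27me3 region, and of the 29 ppk genes 24, 21 and 20. All 8 neuroblast markers and all 4 neuronal markers had regions of all 3 marks. An H3K9me3 peak of any Q-value also lay at 5 of the 8 neuroblast markers (N, klu, mira, tll and wor). The same held for all 6 markers of intermediate progenitors and 3 of the 4 neuronal markers, against 18.7% of other genes.

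H3K9me3, which the authors deposited as 1 list of peaks for control brains, had a peak at 14 receptor genes (7.57%), against 18.7% of other genes. By bases the order was the other way, since its peaks covered 6.75% of the receptor windows and 4.73% of the other windows. Ir41a and Ir40a decided this: without them, an alternative chosen after seeing the data, 1.36% of the receptor windows was covered. Ir41a (2R, 4917519 to 5021955, + strand) is a receptor gene of 104437 bp, and 50 H3K9me3 peaks covered 37633 bp of its window (35.4%), with summits in introns for 49 of them. Their enrichments ran from 2.21 to 11.3 with a median of 4.71, and the highest −log10 Q-value was 66.5. The summits lay between 2649 bp and 102921 bp from the start site. Ir40a (2L, 22189526 to 22214376, - strand), a humidity receptor of 24851 bp, had 11 peaks, enrichments of 2.85 to 6.75 and a summit 26 bp from a start site.

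**Figure D5:**
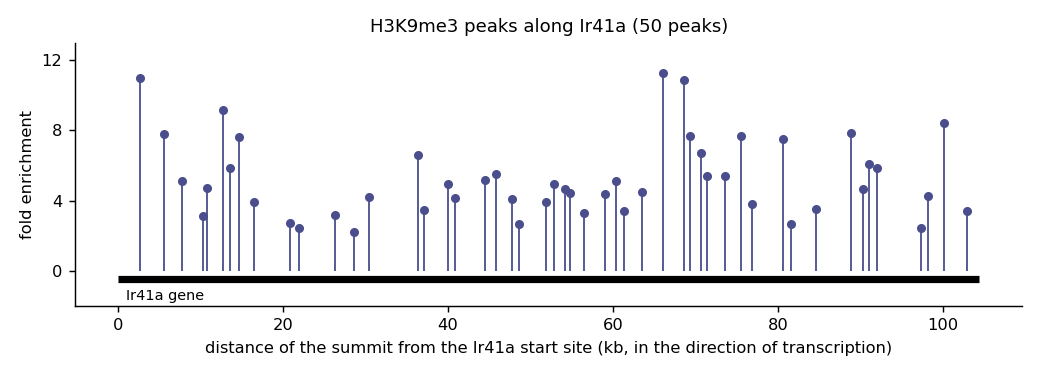
Fold enrichment of the 50 H3K9me3 peaks in the window of Ir41a against the distance of the summit from its start site, with the gene drawn to scale as a black bar. Enrichments run from 2.21 to 11.3, and the summits lie between 2649 bp and 102921 bp downstream of the start.

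The other 12 receptor genes with H3K9me3 had 1 to 6 peaks each. Ir21a had the highest enrichment among them, 9.24 in an exon, followed by Ir31a with 8.03 and Or13a with 6.13. Ir20a (X) had 44.0% of its window covered by 2 peaks, one of them with its summit 31 bp from the start, beside an H3K27me3 region over 79.8% of the window and no factor peak. Ir93a had 6 peaks of 2.58 to 3.77. No receptor gene had an H3K9me3 peak with a −log10 Q-value above 100, against 0.0218% of other genes (3 of 13789), too few to tell the groups apart. Of the 87 receptor genes with another receptor gene within 5000 bp, 0 had an H3K9me3 peak. Of the 98 without, 14 had one (14.3%), against 18.7% of other genes. These 98 include the long genes Ir41a and Ir40a, and the part of gene length in this split was not tested. FruC-Myc had a peak at 7 of the 87 (8.05%) and at 24 of the 98 (24.5%), against 58.6% of other genes. H3K27me3 regions touched 36 of the 87 (41.4%) and 54 of the 98 (55.1%), against 65.2% of other genes.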

How the data were processed

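Files were those of 26 CUT&RUN samples. Before deposit, the authors used cutadapt for trimming and Bowtie2 (local mode) for alignment to BDGP6, kept short fragments for factors, and ran the MACS2 peak caller separately on every replicate. The deposited peak lists give the fold enrichment at the summit (a ratio) and a −log10 Q-value, and both are the authors'. H3K9me3 came as 1 list, and any pooling of its replicates is not given in the sources used here. The other marks were compared by the authors with diffReps, in sliding windows of 500 bp, for fruC-null against control brains. The deposited tables hold positions, the length of each region in bp, and the direction, log2 fold change, adjusted p-value and nearest gene of the authors' comparison, which were not used. Lists and tables hold no reads per gene and sample, so the depth is unknown, no test was made and no error can be given beyond the separate replicates. Columns of other series numbered 0.

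Genes and start sites came from Ensembl release 115 of the same assembly, and all 185 receptor symbols were found in the RefSeq table. A gene was counted where at least 1 bp of a peak (of either replicate, any Q-value) or listed region fell in its window, and shares were set beside those of all other protein-coding genes. Nearby windows overlap, so neighbouring members can share a peak. The receptor genes, role lists and markers were chosen with earlier results of these data known. Genes named were the role groups, for each antibody the 3 members with the highest mean enrichment of the best peak, those with 3 or more antibodies in their promoter, for each mark the 3 with most bases under regions, and members with H3K9me3 −log10 Q-values above 100; others named were chosen after their values were seen. Overlaps and merging were tested on simulated intervals, with bedtools as the reference. Python 3.11.15, numpy 2.4.6, pandas 2.3.3 and matplotlib 3.10.9 were used. The IgG sample and the ENCODE blacklist were not used here.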

Additional observations from a re-analysis of the deposited data

How the results depend on the processing

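No paired analysis was possible because the lists and tables hold no value per gene and sample. In the alternatives run on the share of receptor genes with a peak or listed region, that share stayed below that of other genes, which is given second below. Split by chromosome arm, H3K27me3 on 3L was the exception (68.6%, against 63.6%). The share itself moved, and the cause was not tested. For the gene body alone it was 3.78% for FruC-Myc, against 42.5%, 0% for FruCOM and Trl, against 11% and 6.4%, 1.08% for Su(z)12, against 10.7%, 0.541% for Caf-1, against 9.34%, and 4.86% for H3K9me3, against 13.7%. For windows with no other gene's start site it was 9.18% for FruC-Myc, against 36.7%, 0% for Trl, against 7.32%, and 2.04% for Su(z)12 and Caf-1, against 12% and 9.69%. For the own promoter it was 7.57% for FruC-Myc, against 49.9%, 1.62% for FruCOM, against 12.7%, 2.16% for Su(z)12, against 15.1%, 1.08% for H3K9me3, against 9.38%, and 31.4% for H3K27me3 regions, against 46.8%. With a −log10 Q-value above 10 it was 1.62% for FruCOM, against 8.68%, 0% for Trl, against 2.11%, 2.16% for Su(z)12, against 6.99%, and 3.78% for H3K9me3, against 7%. Above 100 it was 1.62% for FruC-Myc, against 7.95%, and 0% for FruCOM and H3K9me3, against 0.138% and 0.0218%. With a peak required in both replicates it was 4.32% for FruC-Myc, against 23.6%, 1.62% for FruCOM, against 11%, and 2.16% for Su(z)12 and Caf-1, against 10.3% and 7.22%. Without either replicate it ranged from 4.32% to 16.8% for FruC-Myc, from 1.62% to 2.7% for FruCOM, from 2.7% to 3.24% for Su(z)12 and from 2.16% to 3.78% for Caf-1. With at least 50% of the window required it was 11.9% for H3K27ac, against 34.9%, 14.6% for H3K4me3, against 47.3%, and 8.11% for H3K27me3, against 11.7%. The share of window bases under H3K9me3 peaks was 1.36% without Ir41a and Ir40a, against 4.73%, which turned its order against other genes. Replicate 1 of FruC-Myc, with the longer list, decided that count. Depth is unknown, so a missing peak is not evidence that a site was unbound.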

Other observations

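The 6 Ir pseudogenes had 0 peaks of any factor antibody and 0 of H3K9me3, and 78.9% of all receptor genes and 36.3% of other genes had none either. Listed regions touched 4 of 6 for H3K27ac, 4 of 6 for H3K4me3 and 3 of 6 for H3K27me3. The shares were 47%, 42.2% and 48.6% of all receptor genes and 78.8%, 78.2% and 65.2% of other genes. The 26 receptor genes that lie inside another protein-coding gene had a FruC-Myc peak in 2 cases, Ir48c inside ths and Or71a inside Plp, where the enrichment was 3.56 in replicate 1 and the summit was 4 bp from a Plp start. Of all receptor genes 16.8% had a FruC-Myc peak, and of other genes 58.6%. H3K27ac regions touched 12 of these 26 windows, H3K4me3 regions 10 and H3K27me3 regions 10.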
